A study of Mus musculus with 6 samples.

Results

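The tissue inhibitors of metalloproteinases Timp1, Timp2, Timp3 and Timp4 and the membrane-anchored inhibitor Reck were followed in whole mouse lung. These 5 genes were chosen by name as the inhibitor family, and all 5 were found among the 24061 gene identifiers of the deposited count table. Total RNA of lung was sequenced in 2 groups of 3 samples. Controls had the genotype CCSP/-, and the other group had CCSP together with TGFalpha (CCSP/TGFalpha). All mice in both groups had been on doxycycline, for 3 weeks. The club cell secretory protein (CCSP) promoter directs transgenes to club cells and other epithelium of the mouse lung, and TGFalpha is a ligand of the epidermal growth factor receptor. Samples are named by group and replicate number (control 1, TGFalpha 1). The labels give no strain, age or sex, and do not say whether each sample was 1 animal, so the p-values cover the spread among these samples alone, which may be technical.

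Metalloproteinases are zinc enzymes that cut collagens, other matrix proteins and membrane-bound signalling proteins. The Timps are small secreted proteins that bind into the active site of these enzymes with overlapping preferences. Timp1 acts mainly on soluble matrix metalloproteinases, Timp2 also takes part in the activation of pro-Mmp2 at the cell surface by Mmp14, and Timp3 is held in the matrix and also blocks several ADAM and ADAMTS proteases. Timp4 is best known from heart and other muscle. Reck is a glycosylphosphatidylinositol-anchored protein that restrains several metalloproteinases and can serve, with Adgra2 and a frizzled receptor, as a receptor component for Wnt7 ligands. Whether such a receptor forms in these lungs was not tested.

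Libraries held 21479006 to 24914322 counts. Levels are given as CPM, counts brought to a common library size with scaling by the trimmed mean of M-values, as the mean ± SD of 3 samples per group unless single samples are listed. A gene was called changed at an edgeR Benjamini-Hochberg adjusted p under 0.05 over all 16089 genes tested. The mouse Tgfa row was at 25.8 ± 2.94 CPM for control and 27.5 ± 2.09 CPM for CCSP/TGFalpha, a difference that did not pass (edgeR adjusted p = 0.739), and how much of the transgene it could count is not given in the sources used here. Control 1 and TGFalpha 1 stood apart by skeletal muscle transcripts. The summed level of 8 skeletal muscle markers was 1346 and 2313 CPM in those samples and 53.1 to 70.2 CPM in the other 4. Lung markers were present in all 6 samples, with 8 alveolar type 2 markers summing to 13976 to 18512 CPM. The first principal component of log2 CPM over the tested genes held 47.1% of the variance. On it controls 1 to 3 lay at -23.0, -55.2 and -56.4 and TGFalpha samples 1 to 3 at 75.6, 37.2 and 22.0. Control 1 and TGFalpha 3 were thus the libraries of their groups nearest the other group.

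Of the 5 inhibitor genes, Timp1 rose in CCSP/TGFalpha lungs, 35.0-fold. Timp2 lay higher (log2 fold change 0.47) and Reck lower (-1.02) in all 3 TGFalpha samples, both short of the threshold. Timp3 and Timp4 overlapped between groups. Only Timp1 of the 5 passed the threshold, where 8.33% of all tested genes were called in either direction and 5.03% as higher. The CPM values of the groups did not overlap for Timp1, Timp2 and Reck, against 33.2% of all tested genes, split into 17.7% with the TGFalpha samples higher and 15.5% with them lower. All 5 members passed the filter on low counts. The median log2 fold change of the 5 genes was -0.17, beside 0.01 over all genes tested.

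**Figure D1:**
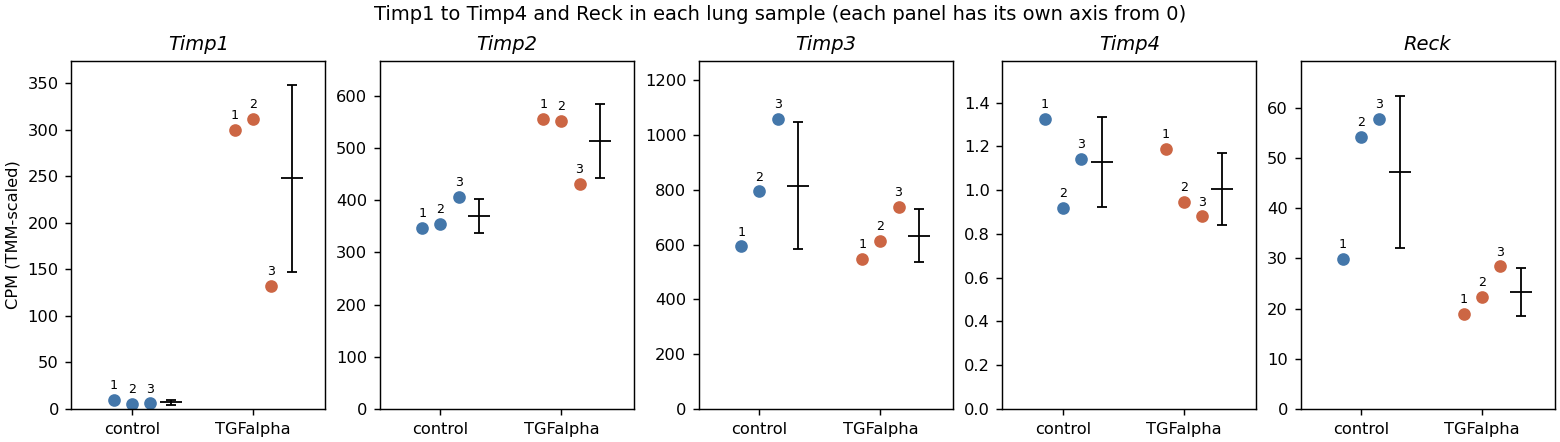
Level of each inhibitor gene in CPM (y axis, from 0, its own scale per panel) in 3 control and 3 TGFalpha samples; points are samples with their replicate number, and the bar at the right of each group is the mean ± SD. Timp1 lies at 5.36 to 9.88 CPM in controls and at 132 to 311 CPM in TGFalpha samples, and Reck is below the lowest control in all 3 TGFalpha samples.

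Timp1 (gene ID 21857; GRCm38.p6, chromosome X, 20870166 to 20874737, plus strand) is the inducible Timp of injured and inflamed tissue. It had 246, 117 and 130 counts in controls 1 to 3 and 7051, 7573 and 3157 counts in TGFalpha samples 1 to 3. As scaled levels these were 9.88, 5.36 and 5.94 CPM against 300, 311 and 132 CPM. Every TGFalpha sample was far above every control. TGFalpha 3 was the lowest of its group and stood well apart from the other two. The log2 fold change was 5.13 ± 0.42 (SE; 95% interval 4.18 to 6.08; edgeR adjusted p = 0.00104), a 35.0-fold difference. This was the 26th largest rise among the 810 genes called higher. The call held in each of the 6 fits with 1 library left out, with adjusted p from 0.00118 to 0.0158 and log2 fold changes from 4.93 to 5.44. Without control 1 and TGFalpha 1 together, the log2 fold change was 5.29 (adjusted p = 0.00525).

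The start of Timp1 is shown because this gene carried the largest difference of the family, and its proximal promoter is known for adjoining binding sites of AP-1 and of ETS factors of the PEA3 group. The window runs from 250 bases before to 50 bases after the RefSeq start (GRCm38.p6, plus strand, chrX:20869916-20870215), and the sequence is from RefSeq. Capitals mark matches to TGAGTAA (an AP-1 variant), AGGAAG (PEA3) and GGGCGG (GC box), each searched on both strands.
Timp1: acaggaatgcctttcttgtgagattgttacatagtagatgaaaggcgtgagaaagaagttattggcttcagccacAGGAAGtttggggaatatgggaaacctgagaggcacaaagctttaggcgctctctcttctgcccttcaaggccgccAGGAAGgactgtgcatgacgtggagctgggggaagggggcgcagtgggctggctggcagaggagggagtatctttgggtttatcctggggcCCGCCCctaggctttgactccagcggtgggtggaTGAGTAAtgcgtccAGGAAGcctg
The TGAGTAA match began at base 27 after the start and an AGGAAG match at base 41. Other AGGAAG matches began 175 and 99 bases before the start. Among 32851 promoter windows of the same length, TGAGTAA was present in 2.68% and AGGAAG in 35.4%. The canonical AP-1 letters TGANTCA, searched likewise, were in 7.81% of windows and in none of the 5 members'. No other member had TGAGTAA in its window, and Timp3 and Timp4 had 1 match of AGGAAG each. These matches are descriptions of letters and were not tied to binding in these samples.

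Few genes for known inducers of Timp1 transcription were called, close to the shares over all tested genes. Of 15 tested cytokine and transcription factor genes, 1 rose and 1 fell, where 5.03% of all tested genes were called higher and 3.29% lower. The median log2 fold change was 0.20. This list was chosen with earlier results of these data known, and Etv4 is its only gene of the PEA3 group. A link between Etv4 and the letters marked above was not tested. Etv4, which encodes a PEA3 group factor, rose from 0.442, 0.183 and 0.0457 CPM to 14.2, 14.9 and 6.16 CPM in samples 1 to 3 of each group, a log2 difference of 5.65 ± 0.65 (edgeR adjusted p = 0.00314). As for Timp1, TGFalpha 3 had the lowest Etv4 level of its group. That library was also the TGFalpha sample nearest the controls on the first principal component, so this order is not particular to these genes. Jun, an AP-1 subunit gene, fell from 187 ± 32.2 to 114 ± 6.23 CPM (log2 fold change -0.71 ± 0.17, adjusted p = 0.04). It remained called when control 1 was left out, but not when any of the remaining libraries was (adjusted p from 0.072 to 0.159), nor with control 1 and TGFalpha 1 omitted together (0.0581). The cytokine genes Osm and Il6 had log2 fold changes of -0.56 and -0.63 (adjusted p = 0.479 and 0.516), and Lif of 0.65 (0.0844).

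Timp2 (gene ID 21858; chromosome 11, 118301061 to 118355411, minus strand) encodes the inhibitor that also bridges Mmp14 and pro-Mmp2. Its levels were 347, 355 and 407 CPM in controls 1 to 3. In TGFalpha samples 1 to 3 they were 556, 552 and 432 CPM. The lowest TGFalpha sample was thus just above the highest control. The log2 fold change of 0.47 ± 0.17 (95% interval 0.09 to 0.85) did not pass adjustment (edgeR adjusted p = 0.113). It was positive in all fits with 1 library left out, from 0.41 to 0.58, with adjusted p of 0.0903 or more.

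Timp3 (gene ID 21859; chromosome 10, 86300412 to 86349505, plus strand), the matrix-bound inhibitor, had the most counts of the family in control lungs. Its levels were 593, 794 and 1058 CPM in controls 1 to 3 and 548, 612 and 736 CPM in TGFalpha samples 1 to 3. Control 1 lay within the TGFalpha range, and the other controls lay above it. The log2 fold change was -0.37 ± 0.24 (95% interval -0.91 to 0.18; edgeR adjusted p = 0.356). Omitting control 3, the highest sample, brought it to -0.14 (adjusted p = 0.775), and omitting control 1 to -0.56 (0.174).

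Timp4 (gene ID 110595; chromosome 6, 115244444 to 115252205, minus strand) was near the lower limit of what these libraries can measure. It had 33, 20 and 25 counts in controls 1 to 3 and 28, 23 and 21 counts in TGFalpha samples 1 to 3. The samples of the groups were interleaved, at 1.13 ± 0.204 and 1.01 ± 0.163 CPM. At this depth the 95% interval of the log2 fold change ran from -1.19 to 0.86 (estimate -0.17 ± 0.45, edgeR adjusted p = 0.838). Changes within that interval are not excluded by these counts. Cardiac muscle markers, 8 genes that lung samples can hold through pulmonary vein muscle, summed to 83.6 to 129 CPM in controls and 54.8 to 113 CPM in TGFalpha samples. The highest Timp4 level of each group was in control 1 (1.32 CPM) and TGFalpha 1 (1.19 CPM), the libraries with 1346 and 2313 CPM of skeletal muscle markers. The part of either muscle list in the Timp4 level was not tested.

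Reck (gene ID 53614; chromosome 4, 43875521 to 43944806, plus strand) had 745, 1182 and 1265 counts in controls 1 to 3 and 446, 544 and 678 counts in TGFalpha samples 1 to 3. These corresponded to 29.9, 54.2 and 57.8 CPM against 19.0, 22.4 and 28.4 CPM. All TGFalpha samples were below all controls, but control 1 was close to TGFalpha 3. The log2 fold change was -1.02 ± 0.27 (95% interval -1.64 to -0.41), 49.2% of the control level, with an edgeR adjusted p of 0.0542 just outside the threshold. Reck passed as lower with DESeq2 (adjusted p = 0.00344), with a filter of 1 CPM in 3 samples (0.0473), without control 1 (0.0153), and without that library and TGFalpha 1 together (0.0342). Without any other single library the adjusted p was between 0.064 and 0.194.

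The start of Reck is shown beside that of Timp1 as the member with the largest difference in the other direction (GRCm38.p6, plus strand, chr4:43875280-43875579, from RefSeq; capitals as for Timp1).
Reck: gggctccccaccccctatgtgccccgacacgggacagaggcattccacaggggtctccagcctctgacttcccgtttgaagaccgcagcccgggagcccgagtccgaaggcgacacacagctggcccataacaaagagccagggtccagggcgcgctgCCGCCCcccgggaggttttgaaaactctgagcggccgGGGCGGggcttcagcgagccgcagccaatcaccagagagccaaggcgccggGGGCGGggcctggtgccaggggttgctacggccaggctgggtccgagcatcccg
Here the capitals are 3 matches of GGGCGG, of which 1 on the minus strand, and neither TGAGTAA nor AGGAAG occurred. GGGCGG was present in 35.7% of all windows. The Reck window was 69.3% G and C with 23 CG dinucleotides, against 55% and 8 in the Timp1 window and medians of 52.7% and 7 over all windows. Timp2 and Timp3 resembled Reck in this, with 25 and 24 CG dinucleotides, and Timp4 had 2.

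Other genes of the Reck receptor for Wnt7 were divided. Of 7 tested, 2 fell, where 3.29% of all tested genes were called lower. None rose by edgeR, DESeq2 or limma-voom, and 1 was higher at an unadjusted edgeR p under 0.05. The median log2 fold change was -0.07. Fzd4, a frizzled receptor gene of endothelium, fell from 41.6, 50.6 and 61.9 CPM to 15.6, 19.6 and 27.6 CPM in samples 1 to 3 of each group (log2 fold change -1.29 ± 0.24, edgeR adjusted p = 0.0205). The ligand gene Wnt7a fell from 6.02, 10.1 and 12.1 CPM to 2.0, 3.0 and 3.6 CPM (log2 fold change -1.71 ± 0.35, adjusted p = 0.0277). In both, as in Reck, control 1 was the lowest control and TGFalpha 3 the highest TGFalpha sample. These were also the libraries nearest the other group on the first principal component, so this order is not particular to these genes. Adgra2, the adhesion receptor gene that pairs with Reck, was at 22.7 ± 3.96 and 26.6 ± 2.93 CPM (log2 fold change 0.23 ± 0.18, adjusted p = 0.452). For Wnt7b the adjusted p was 0.927 at a log2 fold change of -0.07. The calls were lost without control 2, control 3, TGFalpha 1 or TGFalpha 2, with adjusted p from 0.0649 to 0.0975 for Fzd4 and from 0.0694 to 0.125 for Wnt7a.

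**Figure D2:**
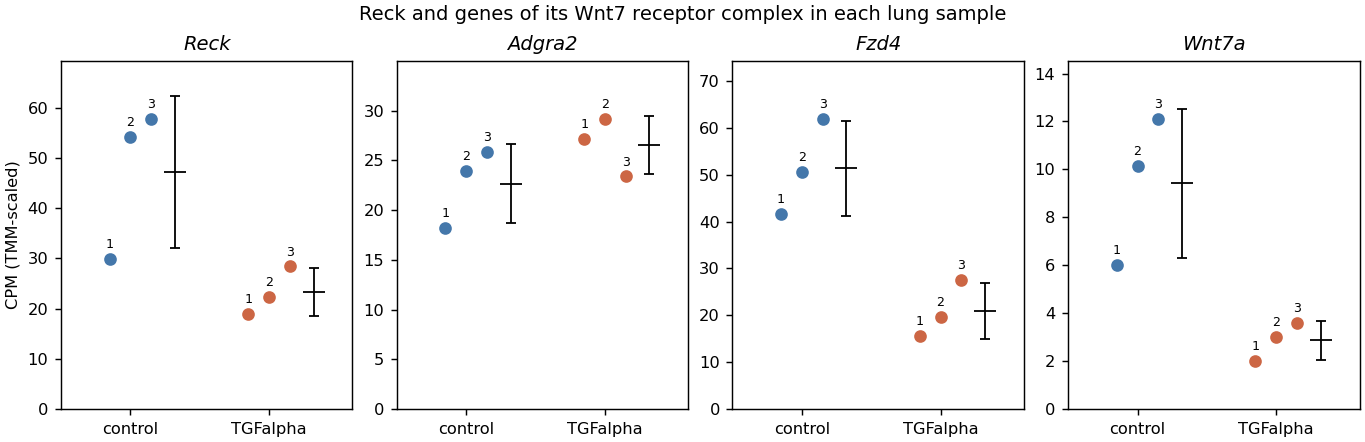
Level in CPM (y axis, from 0, its own scale per panel) of Reck, Adgra2, Fzd4 and Wnt7a in 3 control and 3 TGFalpha samples; points are samples with replicate numbers, bars are mean ± SD. Reck, Fzd4 and Wnt7a are lower in every TGFalpha sample than in any control, whereas Adgra2 overlaps.

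Markers of several cell types, endothelium among them, were at other levels in the same samples. The 10 endothelial markers summed to 2694 to 4735 CPM in controls, with control 1 lowest, and to 1324 to 2437 CPM in TGFalpha samples, with TGFalpha 3 highest. All 10 had negative log2 fold changes and none was at 0. Of them 4 fell by edgeR (Tek, Ptprb, Kdr and Pecam1), where 3.29% of all tested genes were called lower, and 10 fell by DESeq2. None of the 4 calls held without control 2, control 3, TGFalpha 1 or TGFalpha 2 (adjusted p from 0.075 to 0.151). The 8 alveolar type 1 markers summed to 3279 to 4974 CPM in controls, with control 1 lowest, and to 1784 to 2902 CPM in TGFalpha samples, with TGFalpha 3 highest. Of these, 7 had negative log2 fold changes and 3 fell. The other marker, Aqp5, was higher in every TGFalpha sample than in any control (log2 fold change 0.81) without passing (edgeR adjusted p = 0.0616). DESeq2 called 1 gene of this list higher. The 7 club cell markers summed to 9894 to 11842 CPM against 5458 to 7068 CPM, with 2 called lower, and the 7 ciliated cell markers in the table to 367 to 405 CPM against 186 to 211 CPM, with 3 called lower. Over all tested genes 3.29% were called lower, and none of these 8 calls held without control 3.

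The 10 fibroblast markers summed to 1747 to 1963 CPM in controls and 5635 to 8945 CPM in TGFalpha samples. Of them 5 were called higher and none lower, where 5.03% of all tested genes were called higher and 3.29% lower. Log2 fold changes were positive for 8 and negative for 2. At an unadjusted edgeR p under 0.05, 6 were higher and 1 was lower. The Dcn call was lost without control 2, control 3, TGFalpha 1 or TGFalpha 2 (edgeR adjusted p from 0.097 to 0.17). The largest parts of the TGFalpha sums came from the collagen genes Col3a1, at 667 ± 78.0 and 3815 ± 1040.1 CPM, and Col1a2, at 207 ± 41.4 and 1229 ± 249.5 CPM. The receptor genes were not called, with Pdgfra at a log2 fold change of 0.29 (edgeR adjusted p = 0.442) and Pdgfrb at -0.04 (0.941), nor was the transcription factor gene Tcf21 at -0.61 (0.113). Fbln1 at 0.95 (0.069) and Mfap4 at 0.50 (0.208) were not called either, but were higher in every TGFalpha sample than in any control. The 10 pericyte and smooth muscle markers summed to 275 to 404 CPM and 387 to 799 CPM, where Tagln was called higher and Myh11 lower. The Tagln call was lost without control 2 (edgeR adjusted p = 0.069) or control 3 (0.0637). That of Myh11 was lost without control 2, control 3, TGFalpha 1 or TGFalpha 2 (0.0629 to 0.0873). The 8 mesothelial markers summed to 299.7 to 587 CPM and 502 to 652 CPM. Log2 fold changes of this list were positive for 5 and negative for 3. At an unadjusted edgeR p under 0.05, 3 were higher and 1 lower. Among them Wt1 rose from 8.22 ± 6.54 to 119.9 ± 30.9 CPM (edgeR adjusted p = 0.0274), Krt19 was called lower, and Msln had a log2 fold change of -0.30 (0.767). Control 3 had the lowest mesothelial sum, and Wt1 was at 11.2, 12.7 and 0.731 CPM in controls 1 to 3. The Wt1 call did not hold without control 2, TGFalpha 1 or TGFalpha 2 (0.0642 to 0.088), nor without both muscle-rich libraries (0.0732). That of Krt19 was lost without any 1 library other than TGFalpha 1 (0.0813 to 0.164). The 10 macrophage markers overlapped between groups, with sums of 12440 to 34638 CPM in controls and 7902 to 28595 CPM in TGFalpha samples, and 1 was called higher (Fcgr1). Neutrophil markers summed to 112 to 195 CPM and 90.8 to 143 CPM, and adipocyte markers to 19.2 to 41.6 CPM and 16.9 to 88.2 CPM. No tested marker of these 2 lists was called. In bulk lung, fewer cells of a type and less RNA per cell cannot be told apart. The part of these markers in the levels of Timp1 and Reck was not tested.

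Levels were compared between the 5 genes per kilobase of exon (RPKM, from the scaled CPM). In control lungs the order was Timp3 at 174 ± 49.8, Timp2 at 102 ± 8.94, Reck at 10.7 ± 3.42, Timp1 at 7.99 ± 2.78 and Timp4 at 0.383 ± 0.0694 RPKM. Reck and Timp1 overlapped in that order, and the other neighbours did not. In CCSP/TGFalpha lungs Timp1 was first by its mean of 281 ± 113 RPKM, followed by Timp2 at 142 ± 19.5 and Timp3 at 135 ± 20.4, with overlap between each of these and the next. In TGFalpha 3 Timp3, at 157 RPKM, was above Timp1, at 149.8 RPKM. Reck at 5.24 ± 1.08 and Timp4 at 0.341 ± 0.0555 RPKM came last without overlap.

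Timp1 made up a larger share of the Timp transcripts in every CCSP/TGFalpha lung than in any control. Of the summed length-scaled level of the 4 Timp genes it made up 4.77, 2.22 and 1.95% in controls 1 to 3 and 55.6, 55.4 and 35.1% in TGFalpha samples 1 to 3. The mean share was 2.98 ± 1.56% in controls and 48.7 ± 11.8% in CCSP/TGFalpha lungs (n = 3 each; two-sided exact permutation test, p = 0.1, the smallest this design allows). Over the same samples the Timp3 share was 60.4 ± 5.79% and 25.5 ± 9.83%, and the Timp2 share 36.5 ± 4.24% and 25.7 ± 2.05%. The shares of the 4 genes add to a fixed total, so these are not separate observations. The summed level itself was 285 ± 56.3 RPKM in controls and 558 ± 114 RPKM in CCSP/TGFalpha lungs, with no overlap (exact permutation p = 0.1). Within it the mean of Timp1 went from 7.99 to 281 RPKM, that of Timp2 from 102 to 142 and that of Timp3 from 174 to 135. The share and the sum thus restate the Timp1 difference given above and do not show a rise of the whole family.

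**Figure D3:**
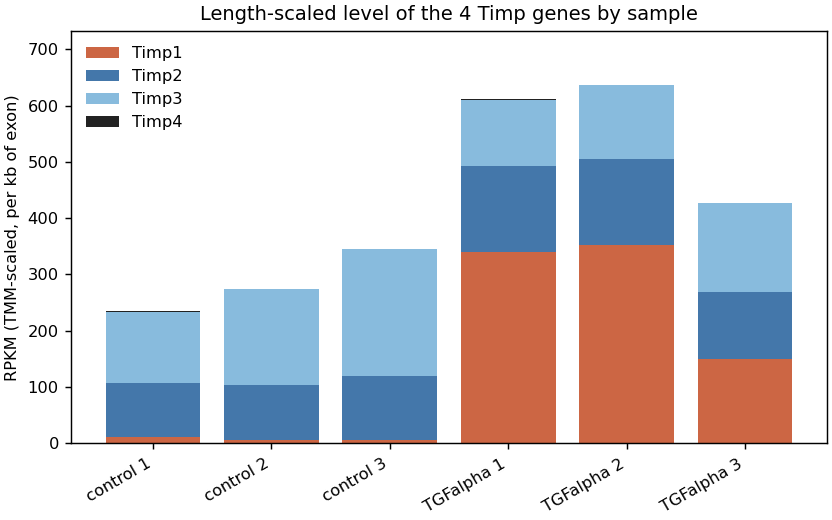
Length-scaled level (RPKM, y axis from 0) of Timp1, Timp2, Timp3 and Timp4 stacked for each of the 6 samples (x axis). Timp1 is a thin band in controls and 35.1 to 55.6% of the column in TGFalpha samples, while Timp4 is too low to be seen as more than a line.

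The matrix metalloproteinases, the main targets of the Timps, were mostly not called. Of the 23 genes of the list, 18 had enough counts to be tested, and 4 rose, where 5.03% of all tested genes were called higher. None fell by edgeR, DESeq2 or limma-voom, and 2 were lower at an unadjusted edgeR p under 0.05. Their log2 fold changes had a median of 0.23 and 7 were negative. Mmp2, the gelatinase gene whose product is activated with the help of Timp2, rose from 109, 115 and 95.5 CPM to 334, 402 and 302 CPM in samples 1 to 3 of each group (log2 fold change 1.70 ± 0.17, edgeR adjusted p = 0.0019). Mmp14, the membrane-bound activator of pro-Mmp2, rose from 68.8 ± 4.02 to 299 ± 118 CPM (2.12 ± 0.27, adjusted p = 0.00481). Mmp10, a stromelysin gene, rose from 0.599 ± 0.21 to 5.07 ± 2.65 CPM, and Mmp23 from 1.38 ± 0.647 to 6.89 ± 3.72 CPM. Mmp9, the gelatinase gene whose proenzyme binds Timp1, was at 19.6 ± 2.88 and 11.5 ± 5.13 CPM (log2 fold change -0.77 ± 0.31, adjusted p = 0.159). The Mmp10 call was lost without control 3 (adjusted p = 0.0733) and without control 1 and TGFalpha 1 together (0.051). The Mmp23 call was lost without control 2 (0.135), control 3 (0.155), TGFalpha 1 (0.12) or TGFalpha 2 (0.0809), and without the 2 libraries rich in muscle transcripts (0.0644). It was also lost with limma-voom (0.0715), which called 3 of the metalloproteinase genes higher, against 4 by DESeq2.

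Among 9 ADAM and ADAMTS genes whose products Timp3 or Reck can inhibit, 3 rose, where 5.03% of all tested genes were called higher. The 9 log2 fold changes had a median of 0.11. None fell by edgeR, DESeq2 or limma-voom, or was lower at an unadjusted edgeR p under 0.05 (0 of 9). Adam12 rose from 2.45, 2.98 and 3.15 CPM to 17.1, 18.2 and 12.3 CPM in samples 1 to 3 of each group (log2 fold change 2.47 ± 0.25, edgeR adjusted p = 0.00204). Adamts4, an aggrecanase gene, rose from 0.84 ± 0.469 to 5.66 ± 1.8 CPM, and Adamts2, a procollagen N-proteinase gene, from 26.9 ± 1.64 to 49.3 ± 8.56 CPM. The main sheddase genes were not called. Adam10 had a log2 fold change of 0.06 ± 0.15 (adjusted p = 0.819) and Adam17, whose product can shed TGFalpha among other proteins, of -0.05 ± 0.21 (adjusted p = 0.912). The Adamts4 call was lost without control 3 (adjusted p = 0.0751) or TGFalpha 2 (0.0549). That of Adamts2 was lost without any 1 library other than TGFalpha 3 (0.0518 to 0.118) and without control 1 and TGFalpha 1 together (0.102).

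**Figure D4:**
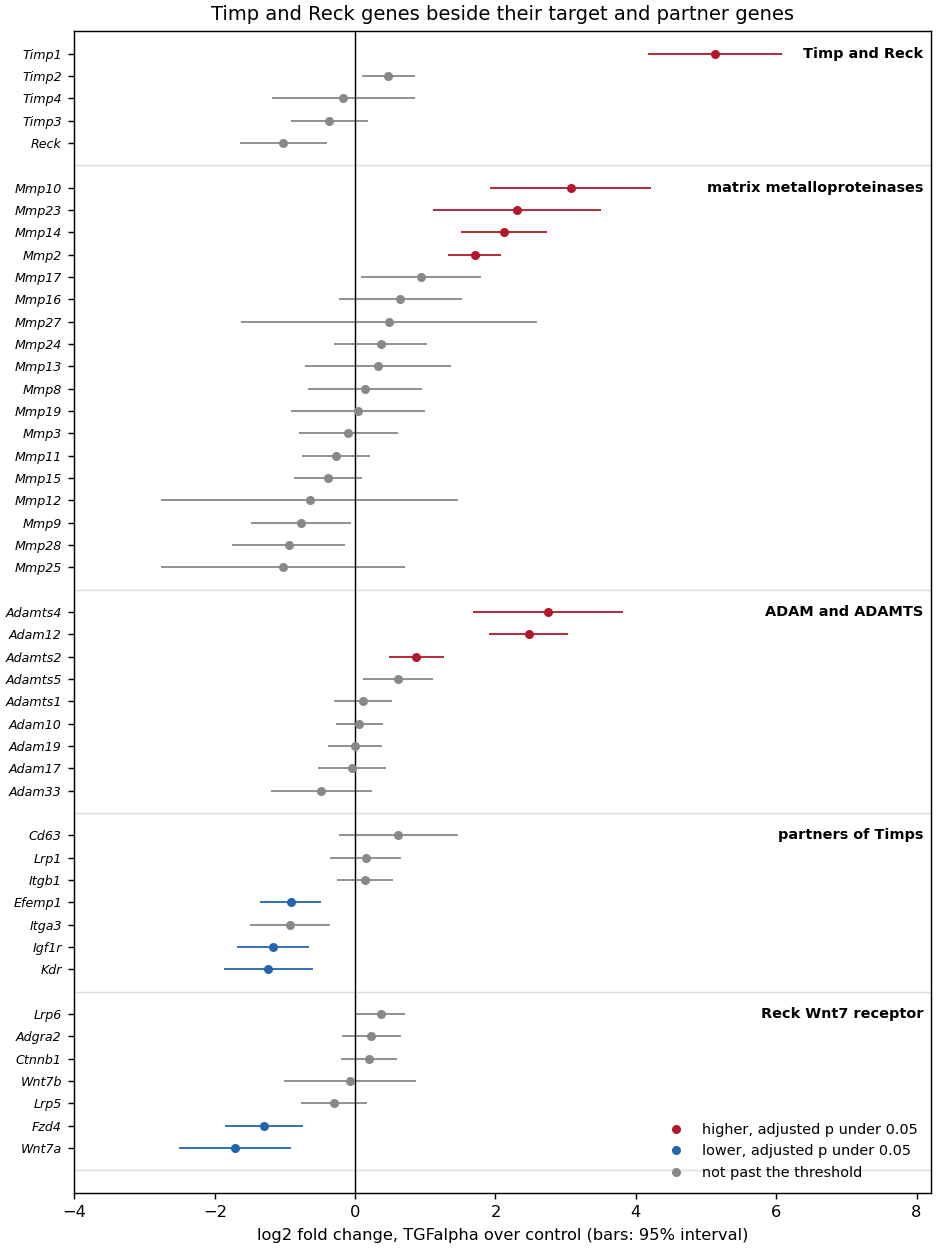
Log2 fold change of TGFalpha over control (x axis) with its 95% interval for each tested gene, grouped as inhibitors, matrix metalloproteinases, ADAM and ADAMTS genes, partners of Timps and the Reck receptor for Wnt7; red and blue mark adjusted p under 0.05, higher and lower, and grey the rest. Timp1 at 5.13 lies to the right of all other genes drawn, and Reck at -1.02 is grey.

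Genes for surface and matrix proteins that bind Timps were partly lower. Of 7 tested, 3 fell, where 3.29% of all tested genes were called lower. The log2 fold changes had a median of -0.92. None rose by edgeR, DESeq2 or limma-voom, or was higher at an unadjusted edgeR p under 0.05 (0 of 7). Kdr, the vascular endothelial growth factor receptor gene whose product Timp3 binds, fell from 368 ± 110.3 to 156 ± 43.4 CPM (edgeR log2 fold change -1.24 ± 0.28, adjusted p = 0.0366), and it is also an endothelial marker. Efemp1, which encodes a fibulin that binds Timp3, fell from 80.2 ± 7.85 to 42.5 ± 9.44 CPM, and Igf1r from 111 ± 16.5 to 49.5 ± 12.8 CPM. Cd63, the gene of a tetraspanin that binds Timp1, was at 94.3 ± 45.9 and 145 ± 49.9 CPM (log2 fold change 0.62 ± 0.37, adjusted p = 0.322). Lrp1, the endocytic receptor gene for Timps, had an edgeR adjusted p of 0.699 at a log2 fold change of 0.15. The Kdr call was lost without control 2, control 3, TGFalpha 1 or TGFalpha 2 (adjusted p from 0.0968 to 0.151), that of Igf1r without control 2 (0.088), control 3 (0.108) or TGFalpha 2 (0.051), and that of Efemp1 without any 1 library but TGFalpha 3 (0.052 to 0.108) and without both muscle-rich libraries (0.104). Among 4 tested genes for other inhibitors of these proteases none was called by edgeR or limma-voom, while 2 were higher and 2 lower at an unadjusted edgeR p under 0.05. DESeq2 called 2 higher and 1 lower. Tfpi2, a serine protease inhibitor gene, had the smallest edgeR adjusted p (0.0621), at 1.99 ± 0.225 and 5.02 ± 1.81 CPM.

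Each of the 4 Timp genes overlaps another gene on the genome, which matters because the strand setting of the counting is not given in the sources used here. Timp1, Timp3 and Timp4 lie inside the synapsin genes Syn1, Syn3 and Syn2, on the opposite strand, and Cep295nl lies inside Timp2 on the same strand. Within the RefSeq gene spans no exon bases were shared in any pair. The GENCODE model of Timp4 is longer and shares 90 exon bases with Syn2. Syn1 had 32, 23 and 16 counts in controls and 16, 84 and 67 in TGFalpha samples 1 to 3. Syn2 rose from 142, 117 and 124 counts to 371, 375 and 291 counts (log2 fold change 1.37 ± 0.20, edgeR adjusted p = 0.00823), and its call was lost without control 3 (0.0507). Timp4, which lies inside it, had 20 to 33 counts in all 6 samples. Syn3 had 60 to 91 counts and Cep295nl 0 to 16 counts.

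The genes most like each member were those with the highest Pearson correlation of log2 CPM over the 6 samples, among 14124 genes. The difference between the groups enters this measure, so it describes shape over these libraries only. For Timp1 they were Ckap4, Nudt6 and Celf4 (r = 0.999, 0.997 and 0.997). Celf4 went from 3.93 ± 0.724 to 23.5 ± 6.89 CPM. For Timp2 they were Ccm2, Tmem45a and Rcn1 (r = 0.997, 0.994 and 0.993). Those nearest to Timp3 were Wdtc1, Arhgap42 and Efcab14 (r = 0.996, 0.987 and 0.984), none of them called. Reck was closest to Zfp784, Septin1 and Cyth3 (r = 0.998, 0.996 and 0.994), also not called. Cyth3 was at 167 ± 44.9 and 89.8 ± 16.4 CPM (edgeR adjusted p = 0.0516). The nearest to Timp4 were Esr1, Slc8a3 and Mlip (r = 0.993, 0.991 and 0.985), a ranking that rests on 20 to 33 counts of Timp4 per library.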

How the data were processed

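The deposited file holds raw read counts per gene for 6 lung RNA libraries, which the authors left without normalization. The submitters' processing notes name bcl2fastq, CASAVA 1.8, TopHat, DESeq and build mm10. The counter, its strand setting and the annotation are not given in the sources used here. Identifiers were paired with symbols through RefSeq genes on GRCm38.p6 (23976 of 24061; the rest took 1.73 to 3.8% of counts and stayed in totals). Within each group no libraries were duplicates (chi-square over degrees of freedom of 48.6 or more).

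Differences were tested with edgeR 4.0.16 (R 4.3.3) by quasi-likelihood, after TMM scaling and filterByExpr. Group was the only term, and p-values were Benjamini-Hochberg adjusted. In simulated data the step called 23% of the tested genes given a 2-fold change and 80.4% of those given a 4-fold change. A gene that was not called may therefore still differ between the groups. Standard errors were derived from the coefficient and the F statistic. RPKM uses GENCODE M21 exons of RefSeq-matched transcripts within the RefSeq span (883 bases for Timp1). Alternatives were DESeq2 1.42.0, limma-voom (limma 3.58.1), other scalings and filters, a replicate block, a threshold of 0.01 and libraries left out.

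The members and lists were chosen with earlier results of these data known. Named were the members, called members of the pathway lists (or, in a list with none, that with the smallest p), genes overlapping a member and the 3 genes most like each. Cell type marker lists are given by sums and counts, with single markers, like the genes next listed, named after their values were seen. Adgra2, Wnt7b, Mmp9, Adam10, Adam17, Cd63, Lrp1, Osm, Il6 and Lif were named for their roles, after their values were seen.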

Additional observations from a re-analysis of the deposited data

How the results depend on the processing

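The direction of all 5 inhibitor genes was the same in every alternative run, and Timp1 was called in each. Timp2, Timp3 and Timp4 were called in none, and Reck in 5 alternatives: DESeq2, the 1 CPM filter, the replicate block (adjusted p = 0.0206), without control replicate 1, and without control replicate 1 and TGFalpha replicate 1 together. The number of genes called was 1340. It was 2493 with DESeq2, 473 without control replicate 1 and TGFalpha replicate 1 together, 260 at an adjusted p of 0.01, and 238 (without control replicate 3) to 1088 (without TGFalpha replicate 3) with 1 library left out; the cause was not tested beyond the fewer samples or stricter threshold in these fits. With counts not divided by length the Timp1 share differed by 16.9 percentage points instead of 45.7, because Timp1 is the shortest transcript of the 4. With 1 library left out that difference was 42.3 to 52.5 points. Replicate numbers of the groups correlated at 0.42, -0.05 and 0.22 in deviations from the group means, so they do not pair the samples; with the replicate block 1470 genes were called, and the block of the Timp1 share gave a permutation p of 0.25, the smallest it allows. For the 15 other called genes of the pathway lists (cell type markers not counted), direction was the same throughout; the call was kept in 171 gene-by-alternative fits and lost in 54, for 11 of the genes. Depth limits Timp4, at 20 to 33 counts per library.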
